A study of Mus musculus with 20 samples.

Results

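The Bcl2 family genes described here are 10 genes that set whether the mitochondrial route of cell death starts: Bcl2, Bcl2l1, Mcl1, Bax, Bak1, Bid, Bbc3, Pmaip1, Bcl2l11 and Hrk. They were chosen by name, and all 10 were found by their Ensembl identifiers among the 19722 genes of the 4 h table and the 51912 genes of the 24 h table. All 10 passed the filter on low values in both tables. They were read by bulk RNA-seq in 20 libraries of mouse forebrain, cut into slices at postnatal day 4 and kept in culture with 5% horse serum. After 4 h of serum there were 3 libraries labelled as knockout (KO) of Tnfaip6, which encodes the secreted matrix protein TSG-6, and 3 wild-type (WT) libraries. After 24 h there were 4 KO-labelled and 3 heterozygous (Het) libraries of females, and 4 KO-labelled and 3 Het libraries of males. The controls therefore differ between the times, and the Het controls carry a KO allele too. The labels name no strain, do not say which bases of Tnfaip6 were removed or in which cells. Nor do they say whether each library is another animal, so the p-values rest on a spread between libraries that may be partly technical. No serum-free slices were analysed here.

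In a cell that survives, the anti-apoptotic proteins Bcl2, Bcl-xL (from Bcl2l1) and Mcl1 hold the pore-forming effectors Bax and Bak1 in check at the outer mitochondrial membrane. BH3-only proteins, among them Bid, Puma (from Bbc3), Noxa (from Pmaip1), Bim (from Bcl2l11) and Hrk, sense damage or loss of trophic support and bind the anti-apoptotic proteins or activate the effectors. Freed effectors open the membrane, cytochrome c leaves, and caspases are activated. In the neonatal forebrain this pathway removes surplus neurons and is engaged by injury. Much of its control lies in protein turnover and binding, which RNA levels do not measure.

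The promoter sequences of Bcl2, Bax and Bbc3 are shown because these 3 genes of 3 different roles were among those whose 4 h libraries did not overlap between the genotype labels. Each is the 250 bases before an annotated start, 5′ to 3′ on the gene's strand, from RefSeq on GRCm38.p6. Capitals mark the GC box GGGCGG and the half-site TGACG, each searched on both strands, so CCGCCC and CGTCA are capitals too. The windows are chr1:106714291-106714540 on the minus strand for Bcl2, chr7:45466899-45467148 on the minus strand for Bax, and chr7:16309333-16309582 on the plus strand for Bbc3, at the most upstream of its 3 starts in the table. The annotations differ for Bbc3, whose GENCODE span begins upstream at 16308393, so that its window lies before the RefSeq start but inside the gene as GENCODE draws it.
Bcl2: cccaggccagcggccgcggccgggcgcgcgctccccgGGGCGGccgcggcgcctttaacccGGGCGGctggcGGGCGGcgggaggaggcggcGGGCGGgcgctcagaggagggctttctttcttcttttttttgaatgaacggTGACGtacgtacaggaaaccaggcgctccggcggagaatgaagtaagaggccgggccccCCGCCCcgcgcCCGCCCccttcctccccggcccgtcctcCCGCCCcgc
Bax: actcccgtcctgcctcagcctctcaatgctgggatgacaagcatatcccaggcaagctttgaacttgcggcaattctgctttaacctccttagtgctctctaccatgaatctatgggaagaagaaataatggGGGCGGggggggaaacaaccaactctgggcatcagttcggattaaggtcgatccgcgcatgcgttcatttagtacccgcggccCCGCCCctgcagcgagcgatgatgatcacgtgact
Bbc3: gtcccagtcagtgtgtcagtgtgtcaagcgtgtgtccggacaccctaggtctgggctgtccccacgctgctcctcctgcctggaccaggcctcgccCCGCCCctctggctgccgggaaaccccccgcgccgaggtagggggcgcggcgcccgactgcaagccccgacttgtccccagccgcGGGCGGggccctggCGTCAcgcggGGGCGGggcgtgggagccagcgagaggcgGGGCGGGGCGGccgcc
The Bcl2 window held 7 GC boxes and 1 half-site, and the Bbc3 window held 5 GC boxes, 1 pair of which overlap, and 1 half-site. The Bax window held 2 GC boxes and no TGACG. G and C made up 74.8% of the Bcl2 window, 54.0% of the Bax window and 76.4% of the Bbc3 window. Over all 32851 windows of this length in the table, 32.7% held a GC box and 17.8% a TGACG. A match is a run of letters, not a bound site. The table held an entry for 9 of the 10 genes, and Pmaip1 is named only.

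The 4 h libraries held 11411532 to 15030171 recovered reads, and the 24 h libraries 8482933 to 18051300 counts. The defining markers of forebrain cell types were present, with no marker of the 11 lists at 0 over all libraries of a table. Tnfaip6 was not lost in the KO-labelled libraries. It had 40.6, 73.2 and 83.3 normalised reads in the KO-labelled libraries at 4 h, against 67.2, 92.6 and 84.4 in WT. At 24 h it lay between 5.14 and 8.09 CPM in KO-labelled libraries and between 3.43 and 6.42 CPM in Het. CPM are counts scaled to the library's total over the tested genes, adjusted by a normalisation factor (TMM). Tnfaip6 was higher in KO-labelled libraries by an exact two-sided permutation test within sexes (p = 0.0204). The genotype directions below therefore rest on the labels. KO female 2 had 0 Xist counts and 1650 Y-linked counts, against the sex in its title. KO female 1, KO female 3 and KO male 3 held 1450, 2669 and 450 CPM of the choroid plexus gene Ttr, whereas no other 24 h library reached 1 CPM. For Ttr alone the counts were scaled to the plain library total. The 4 h labels give no sex, and Xist reads were abundant in KO 1 and WT 1, with Y-linked reads in the other 4 libraries.

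Levels were compared between genes per length, as RPKM, reads scaled by the length of the merged exons and by the library's total over the genes that both tables hold. Mcl1, a short-lived protein that cells must keep making, had the highest level at both times over merged exons, and Bcl2, the founding member of the family, was among the lowest. At 4 h Mcl1 averaged 34.9 ± 3.65 RPKM over all libraries (SD, n = 6), Bcl2l1 26.3 ± 1.80, Bax 22.3 ± 1.92 and Bbc3 21.5 ± 2.47. Bak1 followed with 9.98 ± 0.57 RPKM, Hrk with 9.71 ± 1.13 and Bid with 6.59 ± 0.70. Bcl2l11 averaged 2.56 ± 0.22, Pmaip1 1.99 ± 0.39 and Bcl2 1.68 ± 0.28 RPKM. The libraries of neighbours in this order did not overlap between Mcl1 and Bcl2l1, between Bbc3 and Bak1, between Hrk and Bid, and between Bid and Bcl2l11. The other neighbours overlapped, so the order of Bcl2l1, Bax and Bbc3 and of Bak1 and Hrk lay within the spread between libraries. Pmaip1 likewise overlapped both Bcl2l11 and Bcl2, whereas Bcl2l11 (2.21 to 2.81 RPKM) lay above Bcl2 (1.27 to 1.93 RPKM) without overlap.

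At 24 h the order was Mcl1 with 40.3 ± 2.35 RPKM (SD, n = 14), Bcl2l1 with 25.01 ± 1.36, Bax with 21.5 ± 1.69, Bbc3 with 20.9 ± 2.24 and Hrk with 16.8 ± 2.29. Bak1 averaged 10.97 ± 0.67, Bid 6.84 ± 0.57, Bcl2l11 3.48 ± 0.48, Bcl2 2.42 ± 0.30 and Pmaip1 1.94 ± 0.62 RPKM. Hrk, a BH3-only gene named harakiri, thus stood above Bak1 without overlap at 24 h, whereas both lay at a like level at 4 h. Mcl1 and Bcl2l1 again did not overlap, nor did Bak1 and Bid, Bid and Bcl2l11, or Bcl2l11 and Bcl2. The length used bears on this order. With the longest transcript in place of merged exons, Bcl2l1 averaged 46.9 RPKM at 4 h and 44.7 RPKM at 24 h, above Mcl1 at both times, so which of the pair stood highest turns on the length.

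**Figure D1:**
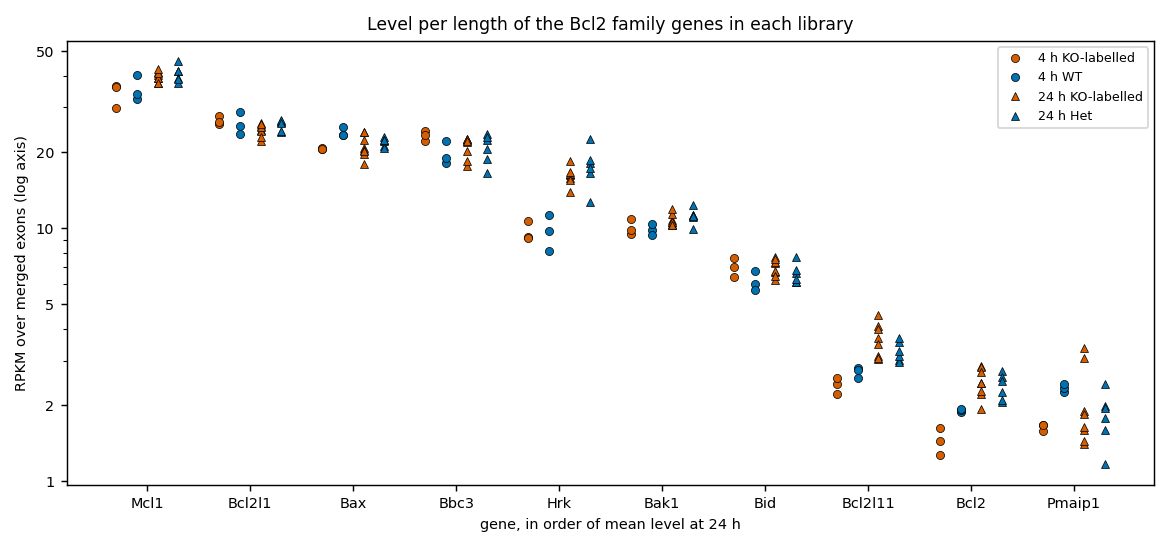
RPKM over merged exons on a log axis for each gene in each library, with circles for 4 h, triangles for 24 h, orange for KO-labelled and blue for WT or Het libraries. Over merged exons Mcl1 stood highest at both times, which the longest transcript as length does not keep, and Hrk lay at 9.71 RPKM on average at 4 h and 16.8 RPKM at 24 h.

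The 4 h comparison asks whether KO-labelled slices differed from WT slices in these genes after a short exposure to serum. None of the 10 passed the adjusted threshold of 0.05 in limma, where 7 of 15181 tested genes did (0.0461%). By edgeR and by DESeq2 on the recovered reads, the count among the 10 was also 0. Unadjusted limma p-values were under 0.05 for 3 of the 10, Bcl2, Bbc3 and Pmaip1, against 13.9% of all tested genes. This set changed with the setting. Bbc3 dropped out without the libraries with Xist reads, and Bcl2 without KO 3. Bid came in without KO 3 and without WT 2, and Bax in edgeR on the recovered reads. In 4 of the 10 the libraries did not overlap between the labels, Bbc3 being higher in KO-labelled slices and Bcl2, Bax and Pmaip1 lower, against 19.0% of all tested genes. With 3 libraries against 3 the exact two-sided permutation test has 20 arrangements and cannot give a p below 0.1. Groups that do not overlap always give this smallest p, so the 0.1 of each of these 4 adds nothing to their separation. The 20 arrangements ignore a possible pairing of the libraries by number, which the labels do not state. Within the 3 pairs there are 8 arrangements, and the smallest exact two-sided permutation p is then 0.25.

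Among the anti-apoptotic genes, Bcl2 (ENSMUSG00000057329, chromosome 1, 106538178 to 106714274, minus strand) had 173, 197 and 152 normalised reads in the KO-labelled libraries, against 220.1, 227 and 225 in WT. All 3 KO-labelled libraries lay below all 3 WT libraries, which were close together. The WT libraries lay closer than counting noise alone would give at 221 to 249 reads each. The means were 174 ± 22.5 in KO-labelled and 224 ± 3.35 in WT slices (SD, n = 3 each), a log2 fold change of -0.37 ± 0.13 (SE, limma adjusted p = 0.226). Its adjusted p lay between 0.0966 and 0.597 over the other settings tried, the lowest coming without KO 2. Bcl2l1, whose product Bcl-xL keeps young neurons alive, had 1559, 1687 and 1575 normalised reads in KO-labelled libraries and 1489, 1709 and 1372 in WT. Its groups overlapped, with a log2 fold change of 0.08 ± 0.08 (limma adjusted p = 0.695). Mcl1 had 1339.6, 1657 and 1605 normalised reads in KO-labelled libraries, against 1421, 1502 and 1748 in WT. Here too the groups overlapped, with a log2 fold change of -0.02 ± 0.09 and a 95% interval of -0.23 to 0.18.

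Of the effectors, Bax (ENSMUSG00000003873, chromosome 7, 45461697 to 45466898, minus strand) had 426, 433 and 423 normalised reads in KO-labelled libraries, against 471, 512 and 468 in WT. The KO-labelled libraries were all lower and differed little among themselves. They differed less than counting noise alone would give at 371 to 491 reads each. The means were 427 ± 5.17 in KO-labelled and 484 ± 24.9 in WT slices (SD, n = 3 each), a log2 fold change of -0.18 ± 0.09 (limma adjusted p = 0.377). Bak1, the effector that sits in the mitochondrial membrane, had 344, 303 and 309 normalised reads in KO-labelled libraries and 302, 326 and 288 in WT. The groups overlapped, with a log2 fold change of 0.06 ± 0.10 (limma adjusted p = 0.834). Bak1 overlaps Ggnbp1 on the opposite strand, and the strand setting of the counting is not given in the sources used here. Ggnbp1 itself held 24.1 to 31.9 normalised reads in KO-labelled libraries and 29.6 to 46.8 in WT. Bax overlaps the protein-coding gene Gm45808 on its own strand, and Bcl2 overlaps D630008O14Rik on the opposite strand, among others. Both Gm45808 and D630008O14Rik were at 0 CPM in all 24 h libraries. How reads shared between overlapping genes were counted is not given either.

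Of the BH3-only genes, Bbc3 (ENSMUSG00000002083, chromosome 7, 16308393 to 16318205, plus strand), a p53 target, had 678, 621 and 648 normalised reads in KO-labelled libraries, against 489.7, 522 and 594 in WT. Every KO-labelled library lay above every WT library. The means were 649 ± 28.5 in KO-labelled and 535 ± 53.1 in WT slices (SD, n = 3 each), a log2 fold change of 0.28 ± 0.09 (limma adjusted p = 0.208). Its adjusted p lay between 0.123 and 0.736 over the other settings. Pmaip1, whose product Noxa binds Mcl1, had 60.3, 57.3 and 59.3 normalised reads in KO-labelled libraries, against 78.7, 82.8 and 84.4 in WT. The gap between the groups was wider than the range within either one. With 52 to 89 reads per library, counting noise alone would spread the libraries more than this, so these ranges understate the spread. The means were 59.0 ± 1.53 in KO-labelled and 81.9 ± 2.94 in WT slices (SD, n = 3 each), a log2 fold change of -0.47 ± 0.17 (limma adjusted p = 0.252), from 52 to 89 reads per library. The adjusted p lay between 0.226 and 0.615 over the other settings.

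The remaining BH3-only genes overlapped between the labels. Bid, which caspase-8 cleaves to link death receptors to mitochondria, had 357, 329.9 and 297 normalised reads in KO-labelled libraries, against 274, 311 and 256 in WT. Only KO 3 lay within the WT range, and the log2 fold change was 0.22 ± 0.11 (limma adjusted p = 0.398). Bid overlaps Bcl2l13 on the opposite strand, which held 873 to 915 normalised reads in KO-labelled libraries and 819.8 to 864 in WT. Bcl2l11, whose product Bim responds to loss of trophic factors, had 234, 259 and 268 normalised reads in KO-labelled libraries and 288, 268 and 281 in WT. KO 3 and WT 2 lay side by side, and the log2 fold change was -0.14 ± 0.11 (limma adjusted p = 0.593). Hrk, best known from neurons deprived of growth factor, had 795, 695 and 676 normalised reads in KO-labelled libraries and 707, 835 and 587 in WT. The WT range enclosed the KO-labelled libraries, with a log2 fold change of 0.04 ± 0.11 (limma adjusted p = 0.924).

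**Figure D2:**
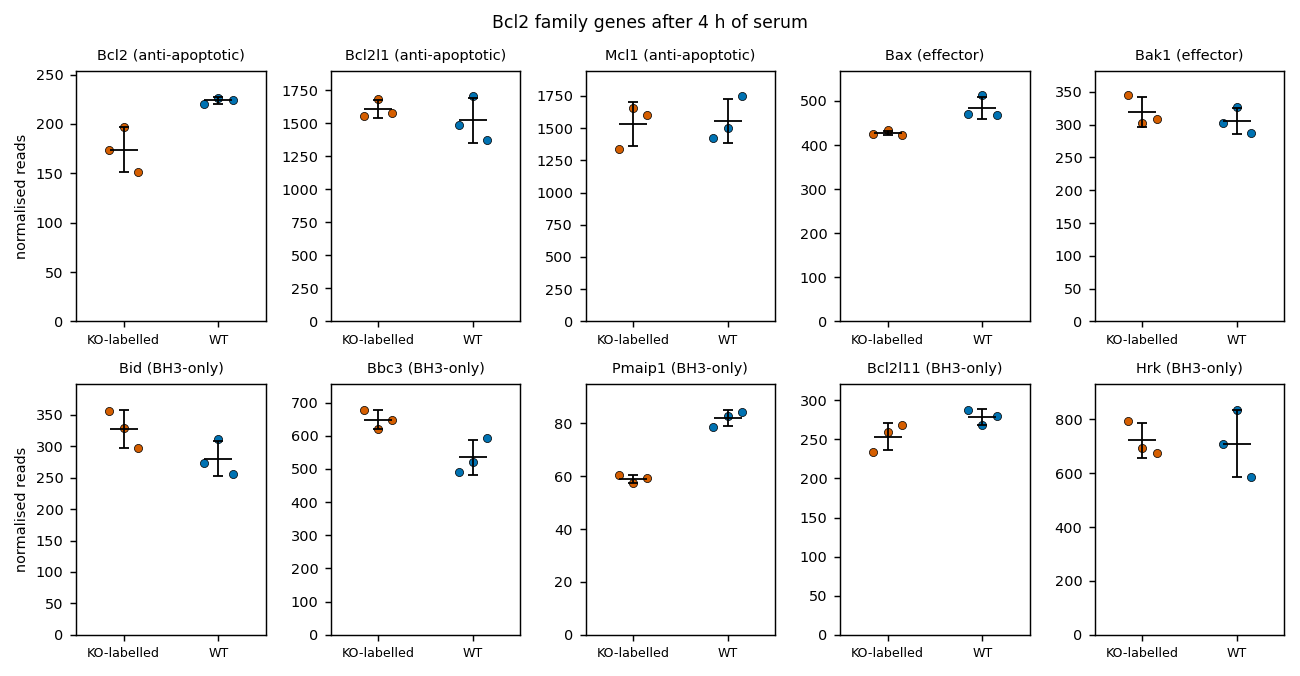
Normalised reads of each gene at 4 h from 0, with 1 point per library, KO-labelled left and WT right, and bars for the mean and SD (n = 3 each). KO-labelled points lie below all WT points for Bcl2, Bax and Pmaip1 and above them for Bbc3.

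Summed RPKM of the 10 genes was split by role. The BH3-only genes made up 30.6% to 34.4% of it in KO-labelled libraries at 4 h, against 29.4% to 29.6% in WT. The effectors made up 21.8% to 23.3% in KO-labelled libraries, against 23.5% to 25.2% in WT, also without overlap. For scale, 19.0% of all tested genes did not overlap at 4 h. The 3 shares sum to the whole and hold Bbc3 and Bax, already named as not overlapping. They are therefore no separate evidence of a shift by role. Within the BH3-only class Bbc3 averaged 23.2 ± 1.11 RPKM in KO-labelled and 19.7 ± 2.1 RPKM in WT libraries (SD, n = 3 each). Bid averaged 7.02 ± 0.61 RPKM in KO-labelled and 6.16 ± 0.54 RPKM in WT libraries. Pmaip1 averaged 1.64 ± 0.05 RPKM in KO-labelled and 2.34 ± 0.09 RPKM in WT libraries. Bcl2l11 averaged 2.40 ± 0.18 RPKM in KO-labelled and 2.71 ± 0.12 RPKM in WT libraries, and Hrk 9.68 ± 0.84 and 9.74 ± 1.58 RPKM. Bbc3 and Bid thus had the higher mean in KO-labelled libraries, and the other BH3-only genes the lower. With the longest transcript as length, chosen after seeing the data, the BH3-only share was 28.7% to 32.2% in KO-labelled and 27.4% to 27.9% in WT libraries, and the effector share 22.0% to 23.2% in KO-labelled and 24.2% to 25.4% in WT. The anti-apoptotic genes overlapped, with 42.3% to 47.6% in KO-labelled and 45.3% to 47.1% in WT libraries. At 24 h all 3 shares overlapped between the labels, the BH3-only share being 31.3% to 35.0% in KO-labelled and 31.1% to 36.1% in Het libraries.

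Marker sums of cell types also differed between the 4 h groups. The 5 excitatory neuron markers summed to 10022 to 11359 normalised reads in KO-labelled libraries, against 7372 to 8948 in WT, with all 5 higher in every KO-labelled library. The 6 general neuron markers summed to 82255 to 88929 in KO-labelled and 76380 to 79148 in WT libraries, 1 of the 6 being higher without overlap. The 6 endothelial and pericyte markers summed to 3802 to 3993 in KO-labelled and 4480 to 5060 in WT libraries, with 5 of 6 lower. The sums of the other 8 lists overlapped, although 3 of 6 astrocyte, 3 of 6 meningeal, 2 of 5 proliferation and 1 of 5 choroid plexus markers were lower in every KO-labelled library. Over all tested genes 19.0% did not overlap between the labels in either direction, and the general neuron and choroid plexus counts lay near that share. At 24 h every list's sum overlapped between KO-labelled and Het libraries. The choroid plexus sum nevertheless reached 2793 CPM in KO-labelled libraries, against at most 18.6 CPM in Het. Its lowest KO-labelled value lay within the Het range. The libraries high in Ttr, a marker of this list, were all KO-labelled, so choroid plexus content was not balanced between the labels. The part of these cell types in the values of the Bcl2 family genes was not tested, and in bulk slices fewer cells of a type and less RNA per cell cannot be told apart.

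The 24 h comparison asks the same of KO-labelled and Het slices after a full day in serum. None of the 10 genes passed the threshold in edgeR, averaged over sexes, and neither did any of 16013 tested genes (0%). Unadjusted edgeR p-values were under 0.05 for 0 of the 10, against 6.62% of all tested genes, and limma and DESeq2 also called 0 of them. No gene of the 10 separated KO-labelled from Het libraries, against 0.0437% of all tested genes that did. The log2 fold changes lay between -0.11 for Hrk and 0.18 for Pmaip1, with a median of 0.01 and 5 of 10 above 0, where 50% of all tested genes were above 0.

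Bcl2 had 17.9, 22.6, 26.6 and 20.2 CPM in KO-labelled females and 25.1, 18.8 and 23.7 CPM in Het females. In males it had 20.9, 26.1, 22.6 and 24.4 CPM in KO-labelled libraries and 22.7, 20.6 and 18.5 CPM in Het. The groups overlapped in both sexes, and the averaged log2 fold change was 0.08 ± 0.10 (edgeR adjusted p = 0.928). Its 95% interval was -0.13 to 0.28. Bcl2l1 lay between 103 and 120.0 CPM in KO-labelled libraries and between 110.3 and 123 CPM in Het. Mcl1 lay between 128 and 144 CPM in KO-labelled and between 128 and 151 CPM in Het libraries. For both, KO-labelled and Het libraries overlapped, although Bcl2l1 reached lower in KO-labelled and Mcl1 higher in Het libraries. The log2 fold changes were -0.05 ± 0.05 for Bcl2l1 and -0.02 ± 0.05 for Mcl1.

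Bax had 38.6, 33.2, 35.7 and 30.9 CPM in KO-labelled females and 36.1, 34.6 and 33.5 CPM in Het females. In males it had 37.9, 32.4, 32.2 and 27.9 CPM in KO-labelled libraries and 35.0, 32.8 and 33.9 CPM in Het. The KO-labelled libraries spread on both sides of the Het libraries in each sex, and the averaged log2 fold change was -0.03 ± 0.07 (edgeR adjusted p = 0.966). Bak1 lay between 24.5 and 29.1 CPM in KO-labelled and between 24.0 and 29.7 CPM in Het libraries, with a log2 fold change of -0.03 ± 0.06.

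Bbc3 had 38.1, 39.5, 48.7 and 47.2 CPM in KO-labelled females and 39.7, 43.8 and 35.1 CPM in Het females. In males it had 48.3, 43.2, 47.2 and 46.4 CPM in KO-labelled libraries and 47.2, 50.2 and 46.9 CPM in Het. KO-labelled and Het libraries overlapped in each sex, and the averaged log2 fold change was 0.04 ± 0.07 (edgeR adjusted p = 0.951). Pmaip1, the lowest of the 10 at this time with 35 to 125 counts per library, had 9.36, 5.23, 5.11 and 4.36 CPM in KO-labelled females and 4.38, 5.41 and 4.88 CPM in Het females. In males it had 3.88, 8.42, 4.54 and 3.90 CPM in KO-labelled libraries and 5.32, 3.19 and 6.42 CPM in Het. KO female 1 and KO male 2 stood above the rest, and the averaged log2 fold change was 0.18 ± 0.22 (edgeR adjusted p = 0.921), or 0.05 ± 0.23 without the 3 libraries high in Ttr. As each library was left out it ranged from 0.03 without KO male 2 to 0.30 without Het male 3, and it was 0.04 without KO female 1 and 0.05 without Het male 2.

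Bcl2l11 had 30.1, 25.4, 24.8 and 33.0 CPM in KO-labelled females and 24.3, 23.8 and 28.8 CPM in Het females. In males it had 36.6, 28.1, 24.9 and 31.6 CPM in KO-labelled libraries and 25.1, 26.2 and 28.5 CPM in Het. The highest values were KO-labelled in both sexes but the ranges overlapped, with an averaged log2 fold change of 0.17 ± 0.09 (edgeR unadjusted p = 0.0853, adjusted p = 0.781). Without the 3 libraries high in Ttr it was 0.23 ± 0.09 (edgeR unadjusted p = 0.0260, adjusted p = 0.823), and without KO female 2 it was 0.19 ± 0.09 (edgeR adjusted p = 0.893). Its averaged unadjusted edgeR p was also under 0.05 without Het female 3, without KO female 3, without KO male 3 and with no filter on low counts. Bid lay between 22.3 and 27.6 CPM in KO-labelled and between 21.8 and 26.4 CPM in Het libraries, with a log2 fold change of 0.10 ± 0.07 (edgeR adjusted p = 0.830), or 0.06 ± 0.08 without the libraries high in Ttr. Hrk had 79.9, 93.2, 94.1 and 92.9 CPM in KO-labelled females and 102, 93.5 and 98.6 CPM in Het females. In males it had 90.6, 89.0, 95.5 and 103 CPM in KO-labelled libraries and 127, 106 and 69.8 CPM in Het, so the Het males held both the highest and the lowest value. Its averaged log2 fold change was -0.11 ± 0.09 (edgeR adjusted p = 0.874), ranging from -0.21 to -0.01 as each library was left out. The averaged unadjusted edgeR p of Hrk was under 0.05 without Het male 3 (adjusted p = 0.469) and with no filter on low counts.

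**Figure D3:**
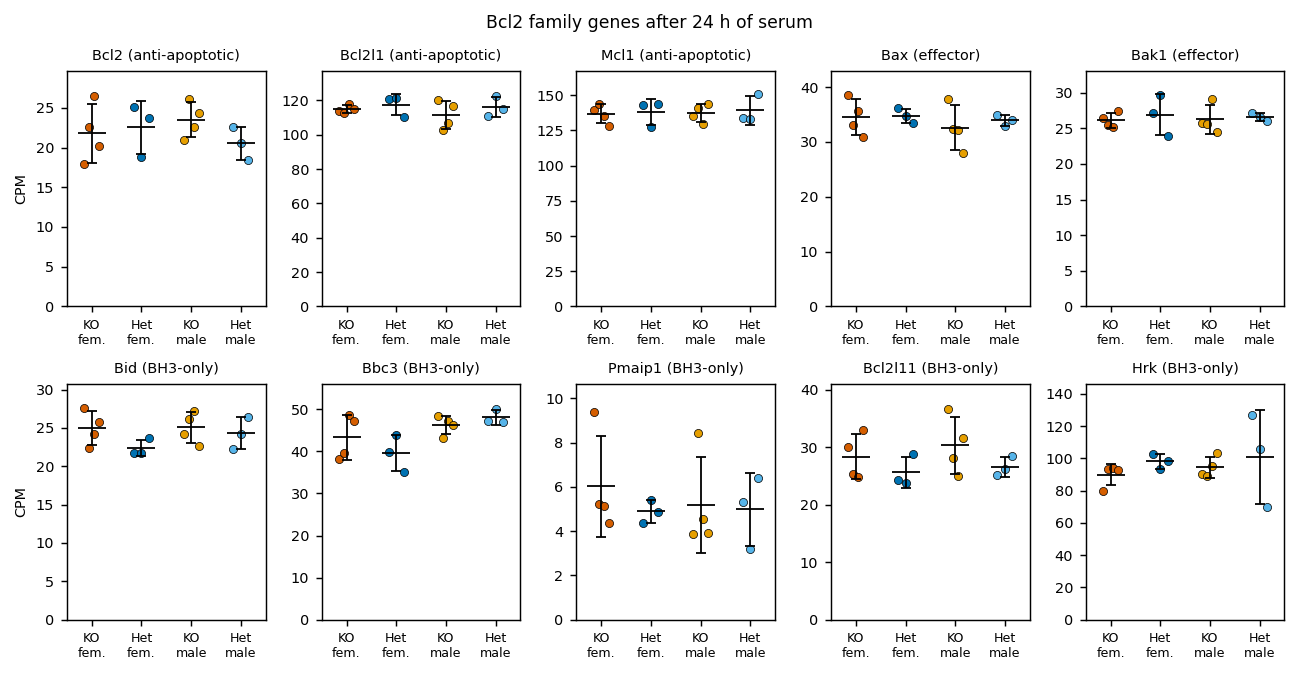
CPM of each gene at 24 h from 0, with 1 point per library for KO-labelled females, Het females, KO-labelled males and Het males, and bars for the mean and SD (n = 4, 3, 4 and 3). Within each sex KO-labelled and Het libraries overlap for all 10 genes.

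**Figure D4:**
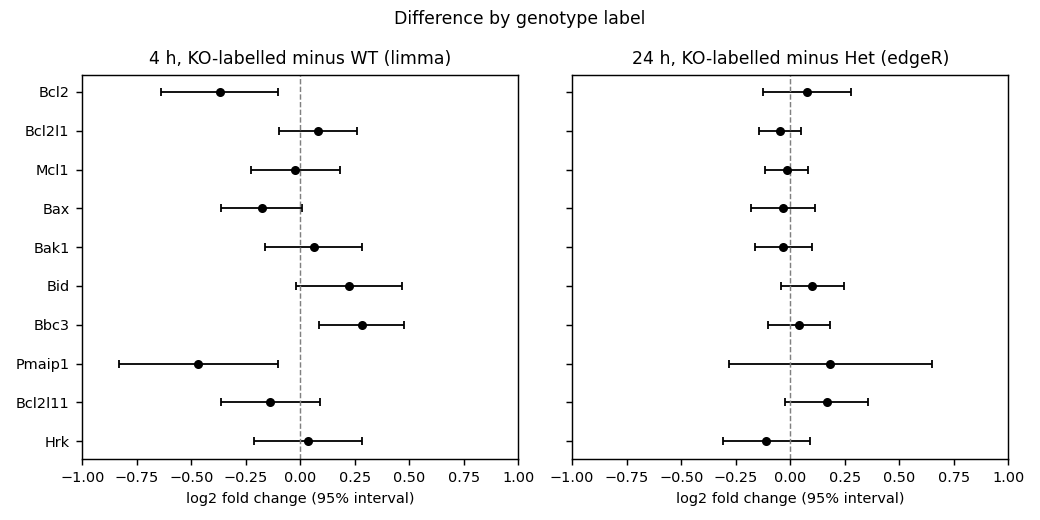
Log2 fold change of each gene with its 95% interval, KO-labelled minus WT at 4 h on the left (limma) and KO-labelled minus Het at 24 h on the right (edgeR). The intervals of Bcl2, Bbc3 and Pmaip1 exclude 0 at 4 h before adjustment, and at 24 h all 10 intervals include 0.

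Sex was the other factor of the 24 h libraries. In females alone 0 of the 10 genes and 0% of all tested genes passed the threshold, and the log2 fold changes lay between -0.13 and 0.30. In males alone it was again 0 of the 10 and 0% of all genes, with log2 fold changes between -0.09 and 0.19. The difference between the male and female genotype effects passed for 0 of the 10 and for 0% of all genes, and no unadjusted edgeR p among the 10 was under 0.05 in these 3 comparisons. Over all tested genes 4.1% were under it in females, 6.87% in males and 3.86% in the difference of effects. Without KO female 2, Bid in females had a log2 fold change of 0.21 ± 0.10 (edgeR unadjusted p = 0.0482, adjusted p = 1). Without the libraries high in Ttr, Bcl2l11 in males had 0.27 ± 0.13 (edgeR unadjusted p = 0.0475, adjusted p = 0.949), and Hrk in males was under 0.05 before adjustment without Het male 3. Between males and females irrespective of label, 0 of the 10 passed, against 0.0187% of all tested genes. Bbc3 alone had an unadjusted p under 0.05 there, 1 of the 10 against 4.42% of all tested genes, with a male minus female log2 difference of 0.19 ± 0.07 (edgeR unadjusted p = 0.0129, adjusted p = 0.998). It averaged 46.3 ± 2.20 CPM in KO-labelled males and 43.4 ± 5.34 CPM in KO-labelled females (SD, n = 4 each), and 48.1 ± 1.83 CPM in Het males and 39.5 ± 4.33 CPM in Het females (SD, n = 3 each). Without KO female 2, whose reads go against its titled sex, the difference was 0.17 ± 0.07 (edgeR adjusted p = 0.937).

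The tables of the times were made and normalised separately, so levels at 24 h and 4 h were set side by side as RPKM with no test. Hrk averaged 16.2 ± 1.27 RPKM in KO-labelled libraries at 24 h (SD, n = 8) and 9.68 ± 0.84 RPKM in KO-labelled libraries at 4 h (SD, n = 3), a ratio of 1.67. Among the controls Hrk averaged 17.6 ± 3.16 RPKM in Het at 24 h (SD, n = 6) and 9.74 ± 1.58 RPKM in WT at 4 h (SD, n = 3), a ratio of 1.81. Hrk was therefore higher at 24 h under either label, without overlap. Bcl2 averaged 2.46 ± 0.33 RPKM in KO-labelled libraries at 24 h and 1.44 ± 0.17 RPKM at 4 h, a ratio of 1.70, and its control ratio was 1.24. The ratio for Bcl2l11 was 1.51 in KO-labelled libraries and 1.21 in controls, both without overlap. Mcl1 stood apart only between the KO-labelled libraries, with a ratio of 1.17, and Bax only between the controls, with a ratio of 0.92. Bcl2 did not overlap between the times under either label. In KO-labelled libraries 4 of the 10 genes thus did not overlap between the times, against 33.5% of 15090 genes tested in both tables, whose median ratio was 1.09 with quartiles of 0.93 and 1.30. Among the controls 4 of the 10 did not overlap, Bcl2, Bcl2l11 and Hrk being higher in Het at 24 h and Bax lower, against 38.9% of the same genes. Time, table and set of libraries cannot be told apart in any of these ratios, nor can the genotype of the controls in theirs.

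The rest of the pathway was described by 4 lists: 14 other Bcl2 family genes, 19 caspase and apoptosome genes, 9 death receptor genes and 17 p53 and stress regulators. At 4 h 0 of their 8, 19, 8 and 17 tested genes passed the adjusted threshold in limma in either direction, with unadjusted p-values under 0.05 for 2, 0, 0 and 4, against 13.9% of all tested genes. Atf3, a stress-induced transcription factor, had the smallest p, with a log2 fold change of -0.49 ± 0.10 (limma adjusted p = 0.0965), and it was the 1 gene of these lists that DESeq2 on the recovered reads called. Jun, its partner in AP-1 dimers, had -0.25 ± 0.08 (limma adjusted p = 0.192), and Chac1, a glutathione-degrading enzyme of the unfolded protein response, had 0.68 ± 0.26 (limma adjusted p = 0.273). Of the other Bcl2 family genes, the BH3-only gene Bmf had 0.41 ± 0.14 (limma adjusted p = 0.235), the effector-like Bok 0.22 ± 0.10 and the anti-apoptotic Bcl2l2 -0.16 ± 0.08. Apaf1, the scaffold of the apoptosome, had 0.20 ± 0.10, the inhibitor of apoptosis Birc3 -0.38 ± 0.19 and the initiator caspase gene Casp8 -0.25 ± 0.20. Among death receptor genes the smallest p-values were those of the adaptors Fadd (0.48 ± 0.29) and Tradd (0.27 ± 0.17) and the receptor Tnfrsf1a (-0.14 ± 0.10), as log2 fold changes with SE. List medians were 0.06, 0.00, -0.15 and 0.03, where the median of all tested genes was 0.00.

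At 24 h 0 of the 9, 19, 8 and 17 tested genes of these lists passed in edgeR in either direction, with unadjusted p-values under 0.05 for 0, 2, 1 and 0, against 6.62% of all tested genes. The caspase-activating Cycs (cytochrome c) had a log2 fold change of -0.16 ± 0.06 (edgeR adjusted p = 0.738), the mitochondrial channel gene Vdac2 -0.09 ± 0.04 and Diablo, whose product relieves caspase inhibition, -0.10 ± 0.05. The death receptor genes Tnfrsf10b and Fas had 0.29 ± 0.12 and 0.34 ± 0.20, and Tnfrsf1a had 0.12 ± 0.07. Bmf had -0.18 ± 0.09, Bcl2l12 0.34 ± 0.25 and the mitophagy receptor gene Bnip3l 0.03 ± 0.04. Cdkn1a, the p53-induced cell cycle inhibitor, had 0.15 ± 0.08, Atf4 0.17 ± 0.10 and Foxo3 0.09 ± 0.06. List medians were 0.00, -0.02, 0.10 and 0.09, and 4, 6, 5 and 14 genes lay above 0.

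In the remaining 24 h comparisons 0 genes of these lists passed in edgeR. In females the genes named by their small p-values in each list were Bmf, Bcl2l12 and Bcl2a1d, then Diablo and Xiap, then Tnfrsf10b, Tnfrsf1a and Fadd, and then Jun, Atf3 and Ddit3, with log2 fold changes between -0.48 and 0.45. In males the smallest p-values of each list were those of Bnip3, Bcl2l12 and Bcl2a1d, of Cycs, Vdac2 and Htra2, of Tnfrsf10b, Tnf and Fas, and of Foxo3, Trp53 and Cdkn1a, between -0.25 and 0.82. For the male minus female genotype effect they were those of Bmf, Bnip3 and Bcl2a1d, of Htra2, Vdac1 and Xiap, of Tnf, Fas and Tnfrsf1a, and of Foxo1, Foxo3 and Jun, between -0.34 and 1.06. For males minus females they were those of Bcl2l2, Bmf and Bcl2l13, of Dffb, Birc2 and Birc3, of Tnf, Cflar and Fas, and of Trp73, Trp53 and Mdm2, between -0.22 and 0.53. Unadjusted p-values were under 0.05 for 1, 1, 0 and 1 of the genes of the lists in females (4.1% of all tested genes), and for 0, 4, 0 and 1 in males (6.87%). They were under it for 0, 1, 0 and 1 in the difference of effects (3.86%), and for 0, 2, 0 and 0 between the sexes (4.42%).

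The 3 genes most alike to each member were found by Pearson's r of log2 CPM over the 14 libraries at 24 h, with Spearman's rho beside it. These libraries share depth, labels and tissue composition, and the genes were picked as the highest of all tested, so the values are a description. For Hrk they were Etl4 (r = 0.91, rho = 0.82), Ndrg4 (r = 0.91, rho = 0.79) and Arl6ip6 (r = 0.90, rho = 0.67). For Bcl2l11 they were Bhlhe40 (r = 0.90, rho = 0.93), Gm17116 (r = 0.83, rho = 0.88) and Ugcg (r = 0.83, rho = 0.79). For Bax they were Txnl4a (r = 0.90, rho = 0.82), Cct7 (r = 0.90, rho = 0.89) and Spr (r = 0.88, rho = 0.81). Bcl2 was most alike to Ythdf2 (r = 0.89, rho = 0.88), Zfp281 (r = 0.87, rho = 0.85) and Adnp (r = 0.86, rho = 0.86). Bbc3 was most alike to Sh3gl1 (r = 0.88, rho = 0.82), Jph3 (r = 0.88, rho = 0.94) and Rfng (r = 0.88, rho = 0.89). None of the genes named for a member was another of the 10. For Bcl2l1 they were Timm22, Ak8 and Fbxw5 (r of 0.85 to 0.86), for Mcl1 Naalad2, Naip6 and Fgfr1op (r of 0.81 to 0.87), and for Bak1 Ptpn13, Fkbp11 and Crybg1 (r of 0.79 to 0.82). For Bid they were Camsap3, Midn and Pqlc1 (r of 0.83 to 0.86), and for Pmaip1 Fbxl4, Uchl3 and Dusp10 (r of 0.83 to 0.85).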

How the data were processed

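Total RNA was turned into cDNA libraries with SMART-Seq V4 chemistry, per the labels' protocols. TopHat2, HTSeq, DESeq2 1.38.3 and the build GRCm38 (mm10) are named in the submitters' processing notes, with no step given. Deposited for 24 h were unnormalised read counts per gene. The values deposited for 4 h are a signal, counts over a size factor for each library. Dividing by the worth of 1 read gave back whole reads, for 100% of values within 0.05. The 24 h titles and genotype fields say heterozygous where the treatment text says WT, and the titles were followed. The serum medium is named as HBSS in the series text and DMEM in the sample protocols.

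Symbols came from the supplied reference table, and coordinates and exon lengths from GENCODE M21 (GRCm38, 1-based). The 4 h values were tested with limma 3.58.1 under R 4.3.3, with an intensity trend on log2(value + 1), for genes with a mean of at least 10. These fold changes understate changes of low genes. The 24 h counts were tested with edgeR 4.0.16 (TMM, filterByExpr, quasi-likelihood F test) with 1 mean per genotype and sex over 14 libraries. Tests were two-sided, adjusted by Benjamini-Hochberg over all tested genes, with a threshold of 0.05. DESeq2 1.42.0 and other settings served as alternatives, and the fits were tested on simulated data. Chi-square per degree of freedom was 3.17 to 12.7 between libraries of a group, so none agreed within sampling noise. At 4 h the libraries of the same number deviated together (correlations 0.264, 0.14 and 0.175), which is the only ground for the pairing. The labels do not say what a shared number means, and KO 1 and WT 1 also share abundant Xist reads.

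The 10 genes and all lists were chosen with earlier results of these data known. Named are all 10, the 3 genes of each list with the smallest p in each comparison, and the 3 genes most alike to each of the 10. One gene that this rule names is not reported here.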

Additional observations from a re-analysis of the deposited data

Results flagged for a closer look

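Groups of 4 libraries were screened for a single value far from the rest, where the gap to the nearest value exceeded 0.829 of the range. Of 20 groups screened 2 were picked out, and chance picks about 1 in 20. Pmaip1 in KO male 2 was 8.42 CPM, where the other KO-labelled males lay between 3.88 and 4.54 CPM, a gap of 0.854 of the range. Hrk in KO female 1 was 79.9 CPM, where the other KO-labelled females lay between 92.9 and 94.1 CPM, a gap of 0.912 of the range.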

How the results depend on the processing

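The count of the 10 genes past the threshold was 0 under every setting run, in all 6 comparisons. The smallest adjusted p among them at 4 h was 0.181 with the replicate number as a block, 0.0966 without KO 2 and 0.597 without the libraries with Xist reads. Of the log2 fold changes at 4 h and averaged over sexes at 24 h, 4 turned their direction when settings other than leaving out 1 library were tried. At 4 h without the libraries with Xist reads the log2 fold change was 0.0092 for Mcl1, -0.0021 for Bak1 and -0.0301 for Hrk, and at 24 h it was 0.0246 for Bax with the replicate block. Leaving out 1 library gave -0.0853 to 0.0722 for Mcl1 and -0.0924 to 0.1605 for Hrk at 4 h, and -0.0712 to 0.0056 for Bak1, -0.0428 to 0.0147 for Mcl1 and -0.0735 to 0.0048 for Bax at 24 h. The cause was not tested. In the other 24 h comparisons, leaving out the libraries high in Ttr turned 1 of the 10 in females (Pmaip1), 1 in males (Mcl1), 2 between the sexes (Bcl2, Pmaip1) and 6 in the difference of effects (Bcl2l1, Mcl1, Bax, Bak1, Pmaip1, Hrk). Leaving out KO female 2 turned Bax in females and Mcl1 and Bcl2l11 in the difference of effects, and the block turned Bax in females. The block changed no call among the 10. At 24 h the numbers did not pair the libraries, and the count of all genes called was 1 with the block and 0 without.

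Calls over all genes moved more. At 4 h they were 7, against 38 with the block, 36 with the block in edgeR (added after seeing the data), 28 with robust spread, 161 in DESeq2, 211 without KO 2 and 1 without the libraries with Xist reads. At 24 h they were 0 averaged over sexes, against 5 in DESeq2 and 263 with no filter on low counts, and between the sexes 3 against 215 with no filter. That unfiltered fit called Atf3 and Foxo1 in females and Foxo1 in the difference of effects. Leaving out the libraries high in Ttr was also chosen after seeing the data. With the longest transcript as length, 4 of the 10 genes kept their rank at 4 h and 8 at 24 h, and 12 of 20 levels moved by more than 1 SD. Pmaip1, at 35 to 125 counts per library at 24 h, was the least precise.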
